A study of Homo sapiens with 6 samples.

Results

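Respiratory complex I takes electrons from NADH, passes them to ubiquinone and pumps protons across the inner mitochondrial membrane. A conserved set of core subunits carries the redox centres and the proton channels, and the accessory subunits wrap around that core and hold it together. Assembly factors help to build the complex in intermediate modules and are not part of the finished enzyme. The genes described here are 46 nuclear genes, 30 of accessory subunits and 16 of assembly factors, and further assembly proteins were read separately. The 46 genes were taken by symbol with 1 transcript cluster per gene, where a transcript cluster groups the array's probes of a locus. Of these, 44 had a named cluster (28 accessory subunits and 16 assembly factors) among the 25141 genes tested. NDUFA13 and NDUFC2 were not analysed here.

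RNA was measured on whole-transcript arrays in A549, an established human lung adenocarcinoma line. The compared groups were A549 cells stably carrying a lentiviral shRNA against S100A4 and A549 cells stably carrying a lentiviral control shRNA, with 3 arrays each that the labels call biological replicates. Both groups grew in DMEM/F12 with serum to a like confluence, and the labels differ on the days in culture. The stated aim was to find genes that act after S100A4, a calcium-binding protein, on the metabolism of mitochondria. The labels name 1 shRNA per group and do not say whether the lines are clones, so a p-value here reflects how far these 6 cultures spread. All levels below are log2 signals and all log2 folds are S100A4 shRNA minus control shRNA, tested with limma with Benjamini-Hochberg adjustment over all genes. A gene is called at an adjusted p under 0.05.

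S100A4 read 5.74, 5.51 and 5.44 on the S100A4 shRNA arrays, against 7.57, 7.12 and 7.18 on the control arrays (log2 fold -1.73, SE 0.13, limma adjusted p = 0.000453). Its signal was above the 95th percentile of the negative control probe sets (7.13 to 7.36 per array) on 0 of the 3 S100A4 shRNA arrays and on 2 of the 3 control arrays, so the log2 fold is a difference in signal and does not measure how much RNA was left. Of 6 epithelial markers 4 were called (66.7%, against 11.6% of all genes). CDH1 (9.57 ± 0.15 with S100A4 shRNA and 8.60 ± 0.11 with control shRNA) and KRT19 rose. KRT18 (14.7 ± 0.14 with S100A4 shRNA and 15.3 ± 0.05 with control shRNA) and KRT8 fell (SD, n = 3 each). EPCAM and MUC1 were not called. KRT19, EPCAM and MUC1 were below the 95th percentile of the negative controls on every array. MUC1 averaged only 4.63 with S100A4 shRNA and 4.70 with control shRNA. The 5 alveolar type II markers averaged between 4.05 and 4.73 over the 6 arrays, close to the median of the array's negative control probe sets (4.18 to 4.27 per array), so the defining genes of that lung cell type were not seen. The 13 leukocyte, fibroblast and endothelial markers averaged between 3.26 and 4.93, and none was called. The array's 2163 positive housekeeping control probe sets had a median of 13.3 ± 0.13 with S100A4 shRNA and 13.5 ± 0.06 with control shRNA (SD, n = 3 each), a difference of -0.23 that goes with every result below and whose part in them was not tested.

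The accessory subunits and assembly factors differed little between the groups. limma called 3 of the 44 genes (6.82%), and it called 11.6% of all genes tested. NDUFA2 and NDUFB5, both accessory subunits, rose (6.08% of all genes were called higher), and the assembly factor NDUFAF7 fell (5.49% of all genes were called lower). The median log2 fold was 0.0083 over the 44 genes and -0.034 over all genes. Log2 folds lay above 0 for 24 genes and below 0 for 20, and ran from -0.33 for NDUFB3 to 0.46 for NDUFA2. At an unadjusted p under 0.05 there were 9 of the 44 genes (20.5%), against 26.4% of all genes. The groups did not overlap for 13 of the 44 genes (29.5%), against 32.8% of all genes. With S100A4 shRNA 7 of them were higher (14.3% of all genes were higher without overlap) and 6 lower (18.5% of all genes). When each array was scaled to its positive housekeeping controls instead, the median of all genes moved to 0.19 and that of the 44 genes to 0.24. On that scale 10 of the 44 genes (22.7%) were called higher and 0 lower, against 19.2% of all genes higher and 1.25% lower, so directions below hold relative to the scale on which they were deposited.

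The 95% interval of the log2 fold lay within a change of 1.5-fold either way (0.585 on the log2 scale) for 41 of the 44 genes (93.2%), and for 87.8% of all genes. On the housekeeping scale that number was 35 of the 44, and 74.3% of all genes. These intervals bound a change in signal, and only 24 of the 44 genes were above the 95th percentile of the negative controls on all 6 arrays. Among the other 20 were the accessory subunits NDUFA3, NDUFA5, NDUFA10, NDUFA11, NDUFB2, NDUFB4, NDUFB5, NDUFB7, NDUFB8, NDUFB9, NDUFC1 and NDUFS6. The rest of them were the assembly factors ECSIT, FOXRED1, NDUFAF3, NDUFAF4, NDUFAF6, NUBPL, TMEM70 and TMEM186. Of those 24, 22 intervals lay within 1.5-fold, and 17 on the housekeeping scale. On the deposited scale the exceptions were NDUFA2, with an upper bound of 0.74, NDUFA12, with an upper bound of 0.59, and NDUFB7, with a lower bound of -0.60. The median SE of the log2 fold was 0.080 over the 44 genes and 0.078 over all genes. A missed threshold does not show equal levels, and the smallest log2 fold that was called for any gene was 0.20 in size.

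**Figure D1:**
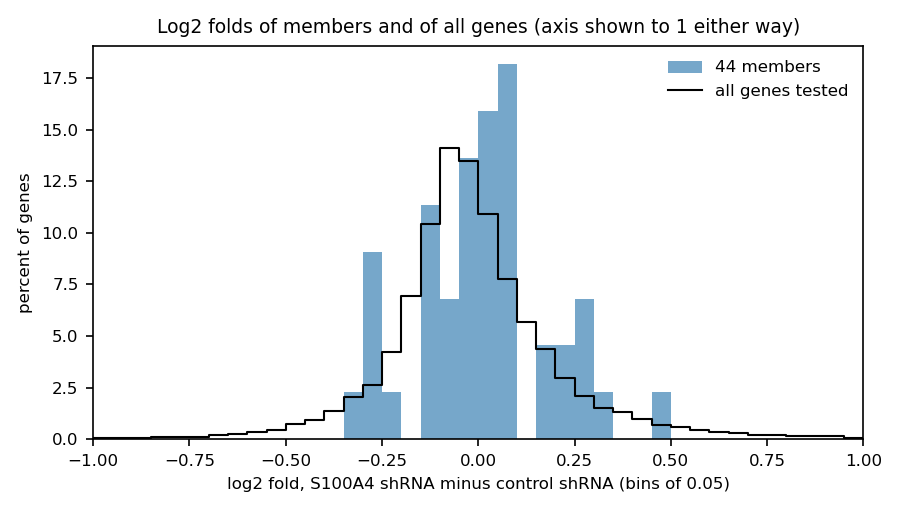
Percent of genes (vertical axis) in bins of 0.05 of the log2 fold of S100A4 shRNA minus control shRNA (horizontal axis), with bars for the 44 accessory subunit and assembly factor genes and a line for all 25141 genes. The 44 genes lie between -0.33 and 0.46, and the axis leaves out the tails of all genes beyond 1 either way.

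**Figure D2:**
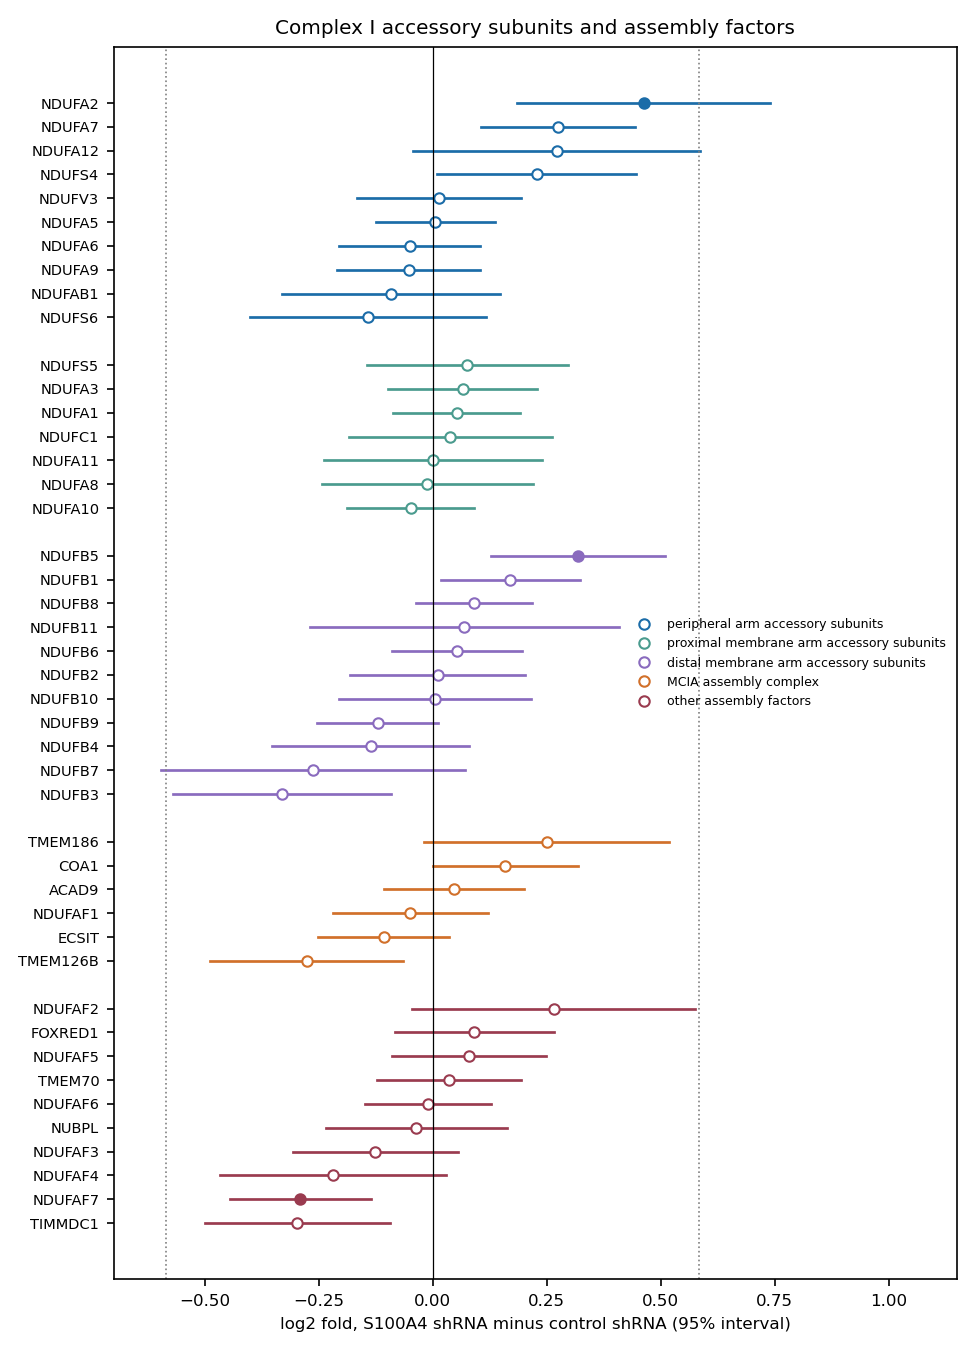
Log2 fold of S100A4 shRNA minus control shRNA for each of the 44 genes (points) with its 95% interval (lines), grouped by role, with filled points for the 3 called genes. Dotted lines mark a change of 1.5-fold either way, which only the intervals of NDUFA2, NDUFA12 and NDUFB7 cross.

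Accessory subunits of the peripheral arm sit on the part of the complex that reaches into the matrix, where NADH is oxidised. Of 10 genes, 1 rose, 0 fell and 9 were not called, with a median log2 fold of 0.0095. NDUFA2, a small matrix-side subunit with a thioredoxin-like fold, read 9.05, 8.77 and 9.21 on the S100A4 shRNA arrays, against 8.68, 8.45 and 8.52 on the control arrays. Every S100A4 shRNA array lay above every control array, by little for replicate 2. NDUFA2 averaged 9.01 ± 0.23 with S100A4 shRNA and 8.55 ± 0.12 with control shRNA (SD, n = 3 each), which gave a log2 fold of 0.46 with an SE of 0.12 (1.38-fold, limma adjusted p = 0.0469). That call was lost in 5 of the 6 fits that left out 1 array, all except the fit without S100A4 shRNA replicate 2 (adjusted p 0.0136 to 0.137), and the log2 fold stayed between 0.36 and 0.58.

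NDUFA7, which lies on the same arm, came closest to the threshold without passing it. It read 8.90, 8.92 and 9.09 on the S100A4 shRNA arrays, against 8.76, 8.65 and 8.68 on the control arrays, and the groups did not overlap (log2 fold 0.27, SE 0.07, limma adjusted p = 0.0513). NDUFS4, a subunit near the NADH-oxidising tip whose loss causes Leigh syndrome in people, read 9.02, 8.92 and 9.19 on the S100A4 shRNA arrays, against 8.95, 8.73 and 8.75 on the control arrays. Its groups overlapped, since control replicate 1 lay above S100A4 shRNA replicate 2 (log2 fold 0.23, limma adjusted p = 0.172). NDUFA12 read 11.34, 11.31 and 11.58 with S100A4 shRNA, against 11.27, 10.85 and 11.30 with control shRNA. The groups of NDUFA12 were separated only narrowly, and control replicate 2 stood below the other arrays (log2 fold 0.27, limma adjusted p = 0.252).

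The remaining peripheral arm genes showed log2 folds near 0. NDUFA5 read 6.65, 6.64 and 6.57 on the S100A4 shRNA arrays, against 6.60, 6.62 and 6.63 on the control arrays, with a 95% interval of the log2 fold from -0.13 to 0.14. NDUFAB1 is the mitochondrial acyl carrier protein, which also serves fatty acid synthesis, and its log2 fold was -0.092. NDUFA6, an LYR-motif protein that binds this carrier, had a log2 fold of -0.051. NDUFA9 (-0.053), NDUFV3 (0.013) and the zinc-binding NDUFS6 (-0.14) were likewise not called, and the groups overlapped for each of these genes.

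The proximal membrane arm is the part of the membrane domain next to the peripheral arm. Of its 7 measured genes 0 were called and none separated the groups. Over all genes 11.6% were called and 32.8% separated the groups, so counts of 0 among 7 genes say little. Log2 folds ran from -0.048 for NDUFA10, a subunit related to nucleoside kinases, to 0.076 for NDUFS5. All 7 intervals lay within 1.5-fold either way, as did those of 87.8% of all genes. NDUFA3, NDUFA10, NDUFA11 and NDUFC1 were not above the 95th percentile of the negative controls on every array. NDUFS5 read 12.18, 12.17 and 12.49 on the S100A4 shRNA arrays, against 12.23, 12.15 and 12.22 on the control arrays, and S100A4 shRNA replicate 3 alone stood high. NDUFC1 read 5.82, 5.65 and 6.02 on the S100A4 shRNA arrays, against 5.76, 5.80 and 5.82 on the control arrays. Here the S100A4 shRNA arrays spread to both sides of the control arrays. NDUFA1 (0.052), NDUFA3 (0.065), NDUFA8 (-0.012) and NDUFA11 (-0.00038) had log2 folds within their standard errors.

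The distal membrane arm holds the NDUFB subunits, around the far proton channels. Of 11 genes, 1 rose, 0 fell and 10 were not called, with a median log2 fold of 0.011. NDUFB5, a single-pass membrane subunit, read 7.51, 7.47 and 7.59 on the S100A4 shRNA arrays, against 7.34, 7.21 and 7.07 on the control arrays. The groups did not overlap, and NDUFB5 averaged 7.52 ± 0.06 with S100A4 shRNA and 7.21 ± 0.13 with control shRNA (SD, n = 3 each), which gave a log2 fold of 0.32 with an SE of 0.08 (1.25-fold, limma adjusted p = 0.0464). The call of NDUFB5 was lost in 5 of the 6 fits that left out 1 array, all except the fit without control replicate 1 (adjusted p 0.033 to 0.143). Its signals are close to the 95th percentile of the negative control probe sets, which lay between 7.13 and 7.36 on the 6 arrays.

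NDUFB3 moved the other way without being called. It read 8.37, 8.18 and 8.09 on the S100A4 shRNA arrays, against 8.38, 8.68 and 8.57 on the control arrays (log2 fold -0.33, SE 0.10, limma adjusted p = 0.0828). Control replicate 1 and S100A4 shRNA replicate 1 nearly met. NDUFB1 read 9.70, 9.72 and 9.76 on the S100A4 shRNA arrays, against 9.62, 9.46 and 9.59 on the control arrays (log2 fold 0.17, limma adjusted p = 0.149), with a narrow gap between the groups. NDUFB7, one of the subunits with twin cysteine motifs on the intermembrane side, had a log2 fold of -0.26, but S100A4 shRNA replicate 2 at 5.96 stood well below replicates 1 and 3 at 6.52 and 6.31, and the control arrays read 6.56, 6.64 and 6.37. Groups of NDUFB7 overlapped.

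Among the other NDUFB genes, NDUFB8 and NDUFB9 separated the groups at small log2 folds (0.090 and -0.12, neither called). NDUFB11 read 11.00, 10.60 and 10.98 on the S100A4 shRNA arrays, against 10.99, 10.53 and 10.85 on the control arrays. Replicate 2 was the low array in both groups, and the difference between the groups was smaller than that dip. NDUFB4 read 5.52, 5.28 and 5.53 with S100A4 shRNA, against 5.45, 5.61 and 5.68 with control shRNA (log2 fold -0.14, not called). Log2 folds of NDUFB2, NDUFB6 and NDUFB10 were between 0.0042 and 0.053.

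**Figure D3:**
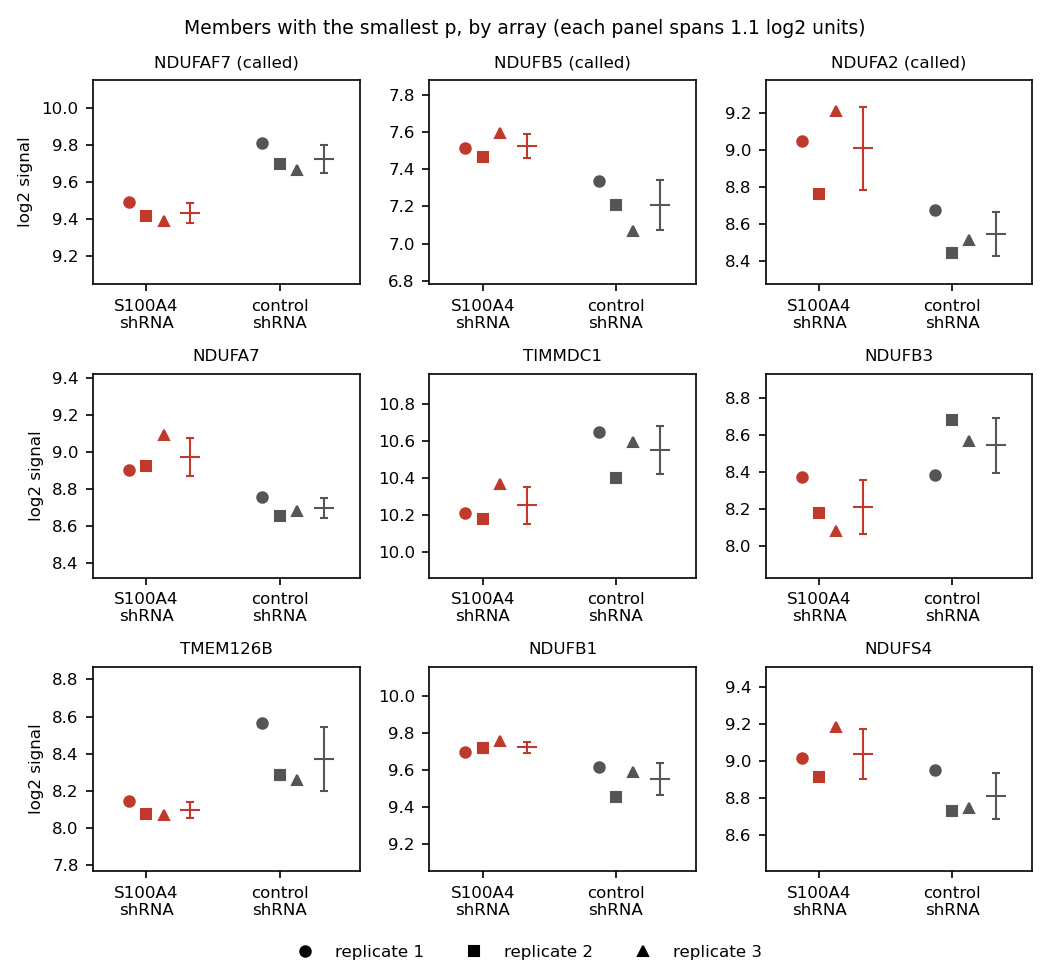
Log2 signal (vertical axis, 1.1 units in every panel) of the 9 genes with the smallest p on each S100A4 shRNA array (red, left) and control array (grey, right), with the mean and SD of the 3 arrays beside the points. NDUFAF7, NDUFB5 and NDUFA2 were called, and the groups overlap only for NDUFS4.

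The MCIA complex, the mitochondrial complex I intermediate assembly complex, is a set of assembly factors that helps to build part of the membrane arm. Of its 6 genes 0 were called, against 11.6% of all genes, with a median log2 fold of -0.00094. TMEM126B, a membrane protein of this complex, read 8.14, 8.07 and 8.07 on the S100A4 shRNA arrays, against 8.57, 8.29 and 8.26 on the control arrays (log2 fold -0.28, SE 0.09, limma adjusted p = 0.099). The groups did not overlap, and control replicate 1 stood above the other controls. ACAD9, an acyl-CoA dehydrogenase relative that works here as an assembly factor, read 8.55, 8.45 and 8.61 on the S100A4 shRNA arrays, against 8.55, 8.46 and 8.46 on the control arrays (log2 fold 0.047). ECSIT read 5.33, 5.20 and 5.26 with S100A4 shRNA, against 5.40, 5.33 and 5.38 with control shRNA, narrowly separated at a log2 fold of -0.11. NDUFAF1 (-0.049), TMEM186 (0.25) and COA1 (0.16) were not called either, so members of 1 assembly complex had log2 folds of both signs.

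Of the 10 other assembly factors, 1 fell, 0 rose and 9 were not called (10% called, against 11.6% of all genes). NDUFAF7 is a mitochondrial arginine methyltransferase that acts early in assembly. It read 9.49, 9.42 and 9.39 on the S100A4 shRNA arrays, against 9.81, 9.70 and 9.66 on the control arrays. The groups were clearly apart and tight, with means of 9.43 ± 0.05 with S100A4 shRNA and 9.72 ± 0.08 with control shRNA (SD, n = 3 each), which gave a log2 fold of -0.29 with an SE of 0.07 (1.22-fold lower, limma adjusted p = 0.0302). The call of NDUFAF7 was lost in each of the 6 fits that left out 1 array (adjusted p 0.0561 to 0.102), while the log2 fold stayed between -0.32 and -0.25. It was also lost when each array was scaled to its positive housekeeping controls (log2 fold -0.063, adjusted p = 0.648).

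TIMMDC1, a membrane-anchored factor that helps to assemble the proximal membrane arm, read 10.21, 10.18 and 10.37 on the S100A4 shRNA arrays, against 10.65, 10.40 and 10.60 on the control arrays. S100A4 shRNA replicate 3 and control replicate 2 lay side by side, and the gene was not called (log2 fold -0.30, SE 0.09, limma adjusted p = 0.0708). NDUFAF2, a paralog of NDUFA12 that holds its place during assembly, read 10.41, 10.09 and 10.35 on the S100A4 shRNA arrays, against 10.18, 9.75 and 10.12 on the control arrays (log2 fold 0.26, limma adjusted p = 0.256). As with NDUFA12, control replicate 2 was low, and the groups of NDUFAF2 overlapped. NDUFAF4, a partner of NDUFAF3 in assembly, read 6.97, 6.97 and 7.02 with S100A4 shRNA, against 7.39, 6.97 and 7.26 with control shRNA (log2 fold -0.22), and control replicate 2 met the S100A4 shRNA arrays. Without control replicate 2 both TIMMDC1 and NDUFAF4 were called, TIMMDC1 at a limma adjusted p of 0.0467 and NDUFAF4 at 0.0433. In the other 5 fits that left out 1 array neither was called (limma adjusted p up to 0.199 for TIMMDC1 and 0.465 for NDUFAF4). On the housekeeping scale their log2 folds were -0.069 and 0.0094.

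The remaining 6 assembly factors were not called. NUBPL, which is needed for the iron-sulfur clusters of complex I, had a log2 fold of -0.036. The hydroxylase NDUFAF5 had a log2 fold of 0.079 and NDUFAF6 of -0.0098. FOXRED1, an oxidoreductase-like factor, read 6.26, 6.27 and 6.29 on the S100A4 shRNA arrays, against 6.32, 6.08 and 6.14 on the control arrays, with overlap. TMEM70, known for ATP synthase assembly as well, had a log2 fold of 0.035 and NDUFAF3 of -0.13, and neither was called.

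Deviations between arrays of a group were shared by many of these genes. S100A4 shRNA replicate 2 was the lowest array of its group for 28 of the 44 genes, and for 39.8% of all genes. Control replicate 2 was the lowest of its group for 20 of the 44 genes, and for 36% of all genes. The median of the 44 genes was 7.76, 7.69 and 7.81 on the S100A4 shRNA arrays, against 7.75, 7.62 and 7.76 on the control arrays, so that replicate 2 was the low array of both groups. Replicate 2 of the S100A4 shRNA group also had the lowest positive control median of the 6 arrays, at 13.2, and its part in the member values was not tested.

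**Figure D4:**
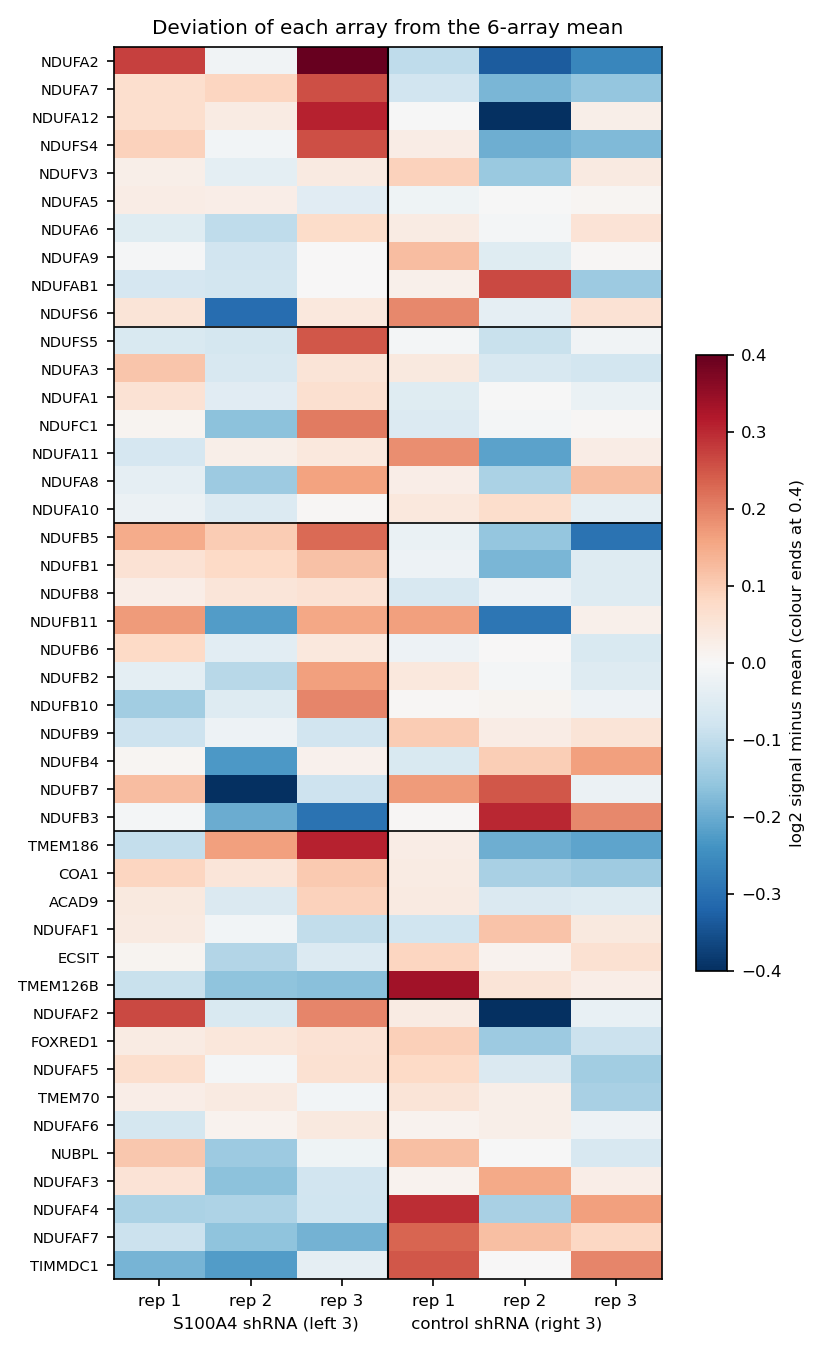
Log2 signal of each of the 44 genes (rows, grouped by role) on each array (columns, S100A4 shRNA left, control shRNA right) minus the gene's mean over the 6 arrays. Blue cells are below and red cells above the mean, and replicate 2 of each group holds many of the blue cells.

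The authors' deposited table is a different summary of the same arrays with group means only. Its unadjusted p-values were adjusted here by Benjamini-Hochberg over the 25141 genes. No member then passed an adjusted p of 0.05, and 2.12% of all genes did. At an unadjusted p under 0.05 there were 6 of the 44 genes in the authors' deposited table (13.6%), against 29.4% of all genes. The median size of the log2 difference was 0.069 over the 44 genes in the authors' deposited table and 0.091 in the array values, although 13 of the 44 had a larger difference in the authors' deposited table. There the log2 differences of the 44 genes ran from -0.25 for NDUFB7 to 0.26 for NDUFA2, with a median of 0.014, against -0.057 over all genes. In the authors' deposited table NDUFA2 had a ratio of 1.20 (unadjusted p = 0.083), NDUFB5 of 1.19 (unadjusted p = 0.0245) and NDUFAF7 of 0.952 (unadjusted p = 0.303). The signs of both sources were the same for 33 of the 44 genes (75%), and for 77.9% of all genes. TMEM126B, NDUFAF4 and TMEM186 were among the genes whose sign turned, with log2 differences of 0.070, 0.062 and -0.044 in the authors' deposited table. Members under an unadjusted p of 0.05 in both sources were NDUFB1, NDUFB5 and TIMMDC1. Of all genes, 26.4% were under it in the array values and 29.4% in the authors' deposited table. The share of all genes under it in both was not counted, so this does not set these members apart.

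Genes that start head to head share a short stretch of DNA between their starts, so the genes next to the members were also compared. Of 38 measured genes with a promoter entry in the RefSeq table of GRCh38.p14, 13 (34.2%) had another protein-coding gene starting on the opposite strand within 1000 bases, against 11.3% of all protein-coding genes in that table. The called members NDUFAF7 and NDUFA2 are both of this kind, and NDUFB5 had no entry. Their intervening stretches are shown because 1 pair moved in the same direction and the other did not. They are written 5′ to 3′ on the strand of the complex I gene, and capitals mark a match to any of 4 motifs searched on both strands.
NDUFAF7 to CEBPZ, chr2:37231597-37231657, plus strand: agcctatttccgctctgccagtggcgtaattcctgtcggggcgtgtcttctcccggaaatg
NDUFA2 to IK, chr5:140647631-140647828, minus strand: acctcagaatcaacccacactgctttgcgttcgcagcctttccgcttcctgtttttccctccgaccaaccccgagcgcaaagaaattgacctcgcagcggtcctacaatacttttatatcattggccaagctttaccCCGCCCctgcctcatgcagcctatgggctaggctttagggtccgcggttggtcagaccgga

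CEBPZ, a nucleolar protein whose yeast relative works in ribosome assembly, starts 62 bases from NDUFAF7. It read 11.55, 11.58 and 11.29 on the S100A4 shRNA arrays, against 11.98, 12.28 and 12.06 on the control arrays. CEBPZ fell with NDUFAF7 (log2 fold -0.64, SE 0.11, limma adjusted p = 0.00969), it stayed called in each of the 6 fits that left out 1 array, and its log2 fold was -0.41 (adjusted p = 0.0756) after scaling to the positive housekeeping controls. IK, a splicing factor, starts 199 bases from NDUFA2 and read 11.54, 11.42 and 11.54 on the S100A4 shRNA arrays, against 11.69, 11.76 and 11.71 on the control arrays. Its groups did not overlap, with a log2 fold of -0.23 (SE 0.06, limma adjusted p = 0.0596), so IK lay on the other side of 0 from NDUFA2 and was not called. After scaling to the housekeeping controls the log2 fold of IK was 0.0022, on the same side as NDUFA2.

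Over the 13 pairs, 3 neighbours were called and all of them fell, while 5.49% of all genes were called lower. These were CEBPZ, the cleavage and polyadenylation factor CPSF2 next to NDUFB1 (log2 fold -0.46, limma adjusted p = 0.0265) and the nucleolar protein ESF1 next to NDUFAF5 (log2 fold -0.44, limma adjusted p = 0.0118). All 3 were bright, with group means between 11.2 and 12.1. After the dimmer 50% of genes were left out, 1590 of the 12572 genes tested there were called lower. The 5.49% is therefore not the share at a like signal. The call of CPSF2 was lost in 5 of the 6 fits that left out 1 array. After scaling to the housekeeping controls none of the 3 stayed called, with an adjusted p of 0.194 for CPSF2 and 0.241 for ESF1. NDUFB1 and NDUFAF5 themselves were not called. Member and neighbour had log2 folds of the same sign in 4 of the 13 pairs, and in 8 of the 13 on the housekeeping scale. In 5 pairs the neighbour (KLHL32, ASB15, MORN5, DLG2 or RNF113A) was not above the 95th percentile of the negative controls on any array, so its sign carries little. Among the other 8 pairs the signs were the same in 2, and in 4 on the housekeeping scale. The pairs that changed were NDUFA2 with IK and NDUFB11 with RBM10. On that scale the log2 folds of IK and RBM10 were 0.0022 and 0.11 (limma adjusted p = 0.987 and 0.386), so this change carries little. These neighbours were picked by position, and they were named after their values were seen.

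**Figure D5:**
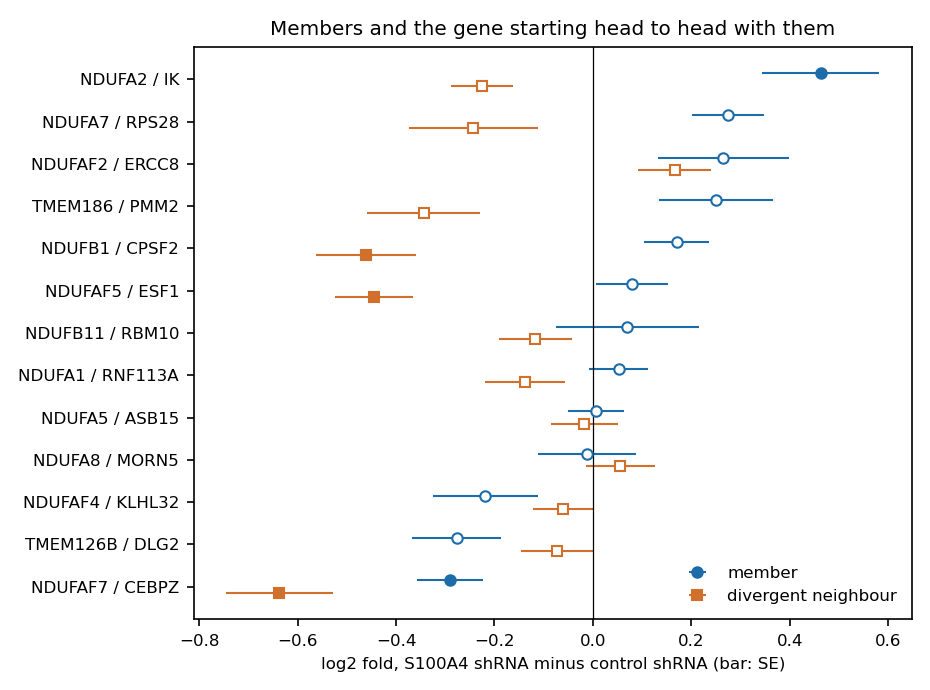
Log2 fold of S100A4 shRNA minus control shRNA with its SE for 13 members (blue circles) and for the gene starting head to head with each (orange squares), filled where called. NDUFAF7 and CEBPZ both lie below 0, while NDUFA2, NDUFB1 and NDUFAF5 lie above 0 beside neighbours that lie below it (IK moves to 0.0022 on the housekeeping scale).

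The 4 motifs were the NRF1 motif GCGCATG, the ETS motif CCGGAAG, the YY1 motif AAGATGG and the SP1 motif GGGCGG, named for factors known to bind promoters of respiratory chain genes. In the 250 bases before the start, the ETS motif was in 7 of 39 members with an entry (17.9%), against 11.8% of 15843 protein-coding promoters. The 39 are the 38 measured genes and NDUFA13, whose signal was not analysed here and which held an ETS and an SP1 match. The SP1 motif was in 21 of 39 members (53.8%), against 56% of those promoters. The NRF1 motif was in 4 of 39 members (10.3%), against 5.04% of those promoters, and the longer NRF1 palindrome that contains it was in 1 of 39 members (2.56%), against 1.48%. The YY1 motif was in 1 of 39 members (2.56%), against 3.35%. A match describes letters only, and the stretch before NDUFAF7 held none of these.

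Genes that serve complex I from outside the 44 were read from lists of related genes. Among 6 core subunits 1 rose and 5 were not called (16.7% called, against 11.6% of all genes). The gene that rose was NDUFV2, the core subunit with a binuclear iron-sulfur cluster beside the NADH site. NDUFV2 read 8.92, 8.99 and 8.88 on the S100A4 shRNA arrays, against 8.52, 8.54 and 8.34 on the control arrays (log2 fold 0.46, limma adjusted p = 0.00817), and it stayed called in each of the fits that left out 1 array, but not in the authors' deposited table (log2 difference 0.31, adjusted p = 0.0711). The core subunits NDUFS8 and NDUFS1 had log2 folds of 0.34 and -0.19 and were not called. The median log2 fold of 8 further assembly proteins was -0.20, against -0.034 over all genes. The positive housekeeping controls differed between the groups by a like amount (-0.23), so this median holds only on the deposited scale. Of them 1 fell and 7 were not called (12.5% called, against 11.6% of all genes). That gene was CHCHD4, the oxidoreductase that imports cysteine-rich subunits into the intermembrane space (log2 fold -0.25, limma adjusted p = 0.0347). It was not called in any fit that left out 1 array, nor on the housekeeping scale (log2 fold -0.026, adjusted p = 0.841), nor in the authors' deposited table (log2 difference -0.097, adjusted p = 0.19). NDUFAF8 and DMAC1 had log2 folds of -0.38 and -0.26, neither called.

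Cofactor supply showed calls in both directions. Of 16 genes for iron-sulfur clusters and flavin, 2 rose, 1 fell and 13 were not called (18.8% called, against 11.6% of all genes). Their median log2 fold was -0.081, against -0.034 over all genes. RFK, the kinase that makes flavin mononucleotide, read 7.96, 7.84 and 8.06 on the S100A4 shRNA arrays, against 7.35, 7.14 and 7.36 on the control arrays (log2 fold 0.67, limma adjusted p = 0.00351). The groups of RFK were well apart. NFS1, the cysteine desulfurase that provides sulfur for the clusters, rose as well (0.36, limma adjusted p = 0.0383), while ferredoxin reductase, FDXR, fell (-0.36, limma adjusted p = 0.0426). FDXR read 5.85, 5.74 and 5.65 on the S100A4 shRNA arrays, against 6.28, 6.04 and 6.01 on the control arrays. On every array FDXR was below the 95th percentile of the negative controls (7.13 to 7.36 per array). In the fits that left out 1 array, RFK stayed called in each, whereas NFS1 stayed called in 1 of 6 and FDXR in 0 of 6. After scaling to the housekeeping controls FDXR was not called. In the authors' deposited table, by contrast, FDXR was called (log2 difference -0.31, adjusted p = 0.0419), while RFK (0.36, adjusted p = 0.0972) and NFS1 (0.22, adjusted p = 0.101) were not.

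Among 13 genes of coenzyme Q synthesis, PDSS1 fell and 12 were not called (7.69% called, against 11.6% of all genes). PDSS1 is a subunit of the enzyme that makes the isoprenoid tail of ubiquinone, the electron acceptor of complex I. It read 8.28, 8.26 and 8.19 on the S100A4 shRNA arrays, against 8.95, 8.92 and 8.74 on the control arrays (log2 fold -0.63, limma adjusted p = 0.00241). Of 9 other enzymes that use NADH or ubiquinone, 2 were called and 7 were not (22.2% called, against 11.6% of all genes). GPD2, the mitochondrial glycerol-3-phosphate dehydrogenase, fell (-0.48, limma adjusted p = 0.005). ETFA, a subunit of the electron transfer flavoprotein, rose (0.25, limma adjusted p = 0.031). The calls of PDSS1 and GPD2 held in each fit that left out 1 array, and that of ETFA was lost in each and with the replicate number as a block (adjusted p = 0.0561). None of these 3 was called in the authors' deposited table, where the log2 differences were -0.25 for PDSS1 (adjusted p = 0.0819), -0.16 for GPD2 (adjusted p = 0.135) and 0.18 for ETFA (adjusted p = 0.128). GPD2 was not called on the housekeeping scale (log2 fold -0.25).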

How the data were processed

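The authors deposited log2 signals per array, and the sources used here do not give the program that made them. A table they deposited holds, per the file headers, log2 group means with a ratio of the groups on the linear scale and a p-value without adjustment for each cluster. The submitters' processing notes name Partek 6.0. Of 26830 clusters with a symbol, 22675 were renamed through their accession in the RefSeq table of GRCh38.p14, 2135 by current and 976 by older symbol, and 1044 kept their name. For a gene with several clusters, the brightest by mean over all 6 arrays stood for it, giving 25141 genes, with no filter on signal. Each of the 44 members measured had 1 cluster.

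limma 3.58.1 in R 4.3.3 (lmFit, eBayes) was fitted to all genes, two-sided, and tested on simulated data. Each SD describes 3 arrays. The number of arrays limits the precision. Fits with other scaling, filters, weights, a replicate block and without each array were also made. Values on every array are given for called members, for the 6 uncalled members with the smallest p and for examples of each role. Members, lists and rules were chosen with earlier results of these data known, so no set test was made. Head to head genes and the motifs were added after the values were seen, and the shorter NRF1 motif after the count of its palindrome was known. Some genes of the related lists are not reported here.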

Additional observations from a re-analysis of the deposited data

How the results depend on the processing

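Of the 44 members, 5 were called after quantile normalization, 1 after subtracting each array's median over named genes, 10 (all higher) after subtracting the median of the positive housekeeping controls, 5 with array weights and 0 in the authors' deposited table. The shares of all genes called in these settings were 14.5%, 10.6%, 20.5%, 15.8% and 2.12%. After the dimmer 50% of genes were left out, 7 of the 43 members still tested were called, against 28.2% of the genes tested there. An unadjusted p under 0.05 was reached by 6 members in the authors' deposited table (13.6%), against 29.4% of all genes. Without 1 array, 0 to 2 members were called: 0 without S100A4 shRNA replicate 1, S100A4 shRNA replicate 3 or control replicate 3. The housekeeping scaling moved the median of all genes to 0.19 and that of the members to 0.24, and it called 4838 genes higher and 315 lower, against 1529 and 1381 in the fit reported. The median of the members ran from -0.025 to 0.034 without 1 array. Leaving out S100A4 shRNA replicate 1, S100A4 shRNA replicate 3, control replicate 2 or control replicate 3 brought the count over all genes to 1801, 1767, 1816 and 1539, against 2910 reported. Over all genes, 5153 were called with that scaling, 532 in the authors' deposited table and 1539 to 2583 without 1 array. The related lists had 16, 2 and 4 to 7 called genes in these settings, against 8 reported. The S100A4 fall kept its call in all 16 alternatives, at log2 folds of -1.82 to -1.36 (without 1 array -1.82 to -1.59). NDUFA2, NDUFB5 and NDUFAF7 kept their direction in all 16 alternatives and lost their call in 7, 8 and 8 of them. For why single calls changed, the cause was not tested, but the filters test fewer genes and the fits without 1 array use fewer samples.

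The replicate numbers were not treated as pairs, since deviations of same-numbered arrays correlated at 0.084, 0.17 and -0.0087 over all genes. By the median of the 44 members, replicate 2 was still the low array of both groups. With the replicate number as a block, 2 members were called against 11.5% of all genes, and NDUFB5 (adjusted p = 0.0777) and ETFA (adjusted p = 0.0561) lost their calls. Levels near the negative controls limit what the arrays can show: 20 members were not above the 95th percentile of the negative controls on every array.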

Other observations

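A cluster named NDUFC2-KCTD14, a readthrough transcript that joins the accessory subunit gene NDUFC2 to its neighbour, was measured although NDUFC2 itself was not analysed here. It read 7.16, 7.18 and 7.06 on the S100A4 shRNA arrays, against 7.21, 7.15 and 7.11 on the control arrays (log2 fold -0.024, limma adjusted p = 0.843). The antisense gene NDUFB2-AS1 had a log2 fold of -0.083 (limma adjusted p = 0.724). Neither was called, and both were named after their values were seen.

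Housekeeping scaling also bears on the head to head pairs. With it, the log2 fold of IK was 0.0022 and that of ESF1 was -0.22 (adjusted p = 0.241). CEBPZ, CPSF2 and ESF1 had log2 differences of -0.15, -0.044 and -0.069 in the authors' deposited table.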
